A study of Mus musculus with 15 samples.

Results

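The genes of the cytosolic ribosomal proteins were compared between male mice with and without Cpt1b in skeletal muscle, in RNA from whole gastrocnemius, the large muscle of the calf. The members were all gene symbols of the deposited count table that begin with Rpl or Rps and a digit, together with Rpsa and the stalk genes Rplp0, Rplp1 and Rplp2 where present. S6 kinases, pseudogene symbols and paralogues ending in l1 were left out. The rule found 60 of the 13602 symbols, of which 35 are named for proteins of the large subunit, 24 for proteins of the small subunit (among them Rps4y2, annotated as a pseudogene) and 1, Rps19bp1, for a binding protein that is no part of the ribosome. The controls were 8 wild-type mice carrying the floxed Cpt1b gene, and the knockouts were 7 mice lacking Cpt1b in skeletal muscle. Cpt1b is the muscle enzyme that commits long-chain fatty acids to entry into mitochondria. Both groups were male and were described as chow-fed for 12 to 14 weeks, although the diet field of every sample reads 45% HFD. The sources used here name neither the Cre driver nor the age of the mice.

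The cytosolic ribosome translates the messages of the nucleus, and each of its proteins is present in 1 copy per ribosome apart from the stalk proteins, so cells make them in near-equal amounts. Their messages belong to the TOP class, whose first bases are a run of pyrimidines and whose translation is raised by the growth kinase mTORC1 and held back by the binding protein Larp1. In skeletal muscle the number of ribosomes is a known determinant of the capacity for protein synthesis and growth. The messages are short and abundant, and the genes have many processed pseudogenes, which matters for a method that counts short tags.

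Libraries were made by SAGE, in which a tag beside the last restriction site before the 3' end of a transcript is read, so a count is that of 1 tag and does not scale with the length of the transcript. The tags below, predicted from GENCODE M21 transcripts (GRCm38) as the 27 bases from the CATG site nearest the 3' end, show what a count of the most abundant members, of 2 paralogues and of 3 members with low p-values would rest on. Capitals mark the CATG site, the usual anchoring site of SAGE, which the labels do not name. Each is written 5′ to 3′ on the strand of the gene.
Rpl10a: CATGggcaagccccagcgtctgtatta
Rpl9: CATGaacaatttgggctcttttgggag
Rpl27: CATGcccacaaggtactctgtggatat
Rpl3l: CATGtaagatgtctggaatggagcaca
Rps27l: CATGcacagactgtggttctttgtgtg
Rpl15: CATGggtaagaatagtccattttggta
Rpl6: CATGgctgccttttactgtggctgtgg
Rps28: CATGgatgacaccagccgctctatcat

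A tag predicted for a ribosomal protein gene was often found in other annotated genes as well. All 60 members were placed on the annotation, 2 of them through a synonym (Rps3a as Rps3a1 and Rps4y2 as Rps4l), and 24 of the 60 predicted tags (40.0%) occurred in the transcripts of at least 1 other gene. Among all symbols of the table that could be given a tag, 473 of 12299 (3.85%) had a shared one. The Rpl27 tag lies in the coding sequence and was found in 11 annotated genes, most of them named as Rpl27 pseudogenes or as numbered gene models. The Rps28 tag was found in 7 genes, the Rpl10a tag in 3 and the Rpl9 tag in 2. The tags of Rpl3l, Rps27l, Rpl15 and Rpl6 were each found in 1 gene only. A genome sequence was not used here, so copies outside annotated transcripts were not counted, and the sources used here do not say how shared tags were assigned by the authors.

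The start sites of the members were searched for the pyrimidine run of the TOP class in RefSeq promoters (GRCm38.p6), which held 53 starts of 45 members. Within 10 bases on either side of the annotated start, an uninterrupted run of at least 8 C or T was present in 13 of 53 starts (24.5%), against 2441 of all 32851 starts (7.43%). The median longest run was 4 bases in both sets. The windows of 30 bases below, 20 before the start and 10 from it, show 3 members that carry the run in capitals. They lie at chr14:18270977-18271006 for Rpl15, chr17:33955656-33955685 for Rps18 and chr4:86857358-86857387 for Rps6, each on the minus strand and written 5′ to 3′. A start annotated away from the true one would hide the run, so a start without it says only that these letters are not in this window.
Rpl15: ggattgtgggagaaagCCTTCTTCCTTTCC
Rps18: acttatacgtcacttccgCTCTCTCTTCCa
Rps6: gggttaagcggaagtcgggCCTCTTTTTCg

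Total counts ran from 8334436 to 19397255 per library and did not separate the groups. The targeted gene Cpt1b ranged in controls from 4.44 to 13.1 CPM (median 6.51) and in knockouts from 1.10 to 6.46 CPM (median 3.83), so the groups overlapped. CPM are tag counts per 1e6 counts of a library, scaled by TMM, a correction for differences in library composition. The log2 difference of knockout minus control came to -1.03 ± 0.31 (SE), and edgeR gave it an adjusted p of 0.103 (0.0487 without control replicate 7, 0.0309 by DESeq2, and 0.0309 to 0.212 over the 22 alternatives), and an exact permutation test of this gene alone gave a two-sided p of 0.00389. Which exons were removed is not stated in the labels, so a tag from the 3' end may not check the genotype. Control replicate 7 and knockout replicate 4 stood apart from their groups across all genes, with values given further on. Left out singly, control replicate 7 moved the log2 difference of 23 of the 56 tested members by over 1.5 times or turned its sign (1 turned), and knockout replicate 4 that of 37 (9 turned). Muscle markers (8 of 8 measured) summed to 97915 to 154980 CPM in controls and 83448 to 136350 CPM in knockouts, and 1 of them, the contractile gene Tnnt3, fell, from 3121 ± 338 to 1983 ± 305 CPM (edgeR adjusted p = 0.00629). Of the markers of other cell types, the 6 fibroblast genes summed to 2176 to 3848 CPM in controls (median 3468) and 1231 to 3083 CPM in knockouts (median 1784), none of them called. Their log2 differences were uneven, with -1.03 for Col1a1, -0.64 for Col1a2, -0.28 for Col3a1, -0.26 for Dcn, 0.03 for Pdgfra and 0.16 for Lum. The 6 measured of 8 macrophage genes summed to 45.6 to 91.6 and 42.9 to 70.0 CPM. Endothelial genes (7 of 7) summed to 255 to 338 and 225 to 319 CPM, and the 3 measured of 8 lymphocyte genes to 1.96 to 3.93 and 1.34 to 4.64 CPM, while Cd3e, Cd3g, Ms4a1 and Cd8a were among those not analysed here. The 5 adipocyte genes summed to 852 to 1157 and 897 to 1569 CPM, and 1 of them, Lep, fell (log2 -1.83 ± 0.43, edgeR adjusted p = 0.0295). That sum is mostly Fabp4 (mean 1022 CPM over all libraries, log2 0.22). The less abundant Adipoq, Cfd and Plin1 had log2 differences of 0.005, -0.11 and -0.39. The part of these cells in the ribosomal protein counts was not tested, and in whole muscle fewer cells of a type and less RNA per cell cannot be told apart.

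The 60 members differed widely in level. Of them 27 had a mean level of at least 100 CPM, 7 lay between 10 and 100 CPM and 26 lay under 10 CPM. Rpl10a, a protein of the mobile L1 stalk of the large subunit (chromosome 17, 28328471 to 28331033), led with 3749 to 7171 CPM in controls (median 5723) and 1912 to 7376 CPM in knockouts (median 5227). Rpl9, of the large subunit (chromosome 5, 65388364 to 65391444), followed with 2238 to 5556 CPM in controls (median 4355) and 1988 to 5093 CPM in knockouts (median 4002). The knockout range took in the whole control range of Rpl10a and most of that of Rpl9, and reached lower in both. Rpl27, of the large subunit (chromosome 11, 101442298 to 101445529), had a mean of 1819 CPM over all libraries, and Rpl5 and Rpl32 had means of 1231 and 866 CPM. At the other end Rps13 (1.21 CPM) and Rpl21 (1.25 CPM) were the lowest members tested, with means of 14.3 and 16.7 counts per library.

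**Figure D1:**
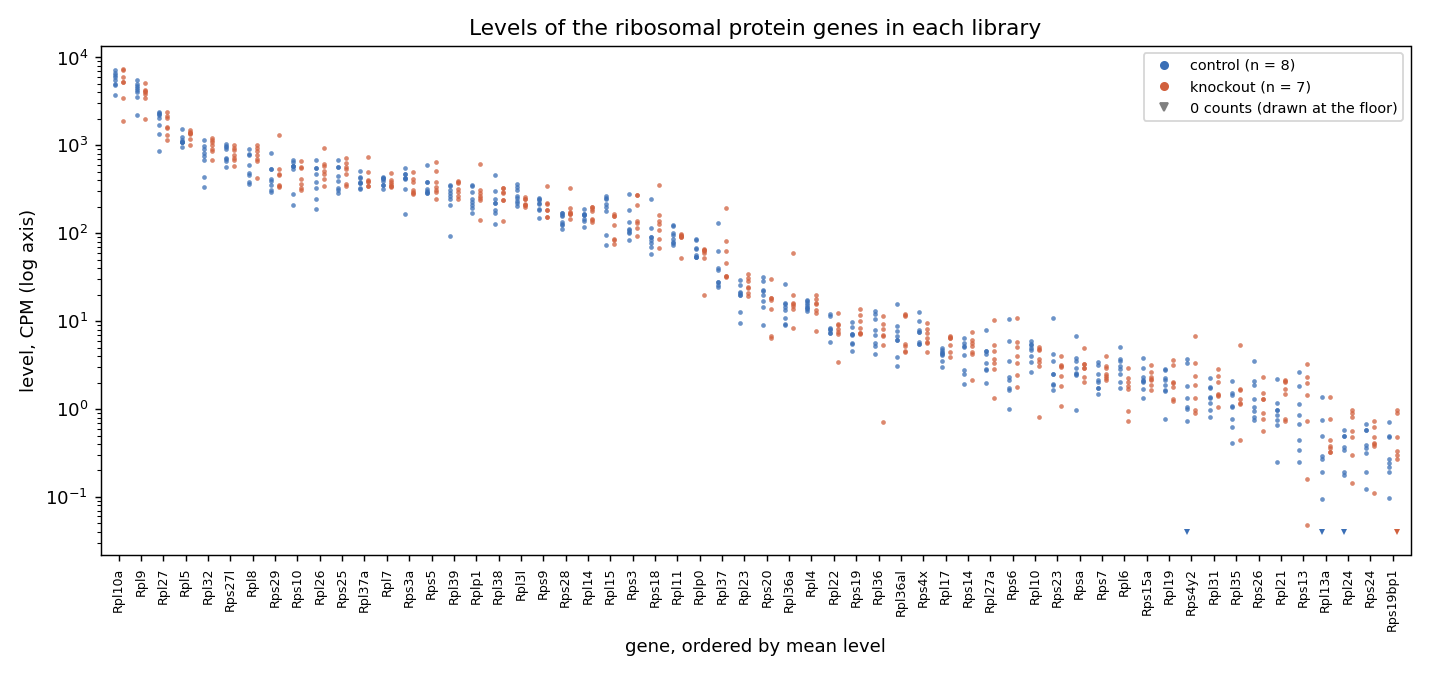
Level in CPM (log axis) of 58 of the 60 genes in each of the 15 libraries, ordered by mean level. Controls (n = 8) and knockouts (n = 7) lie side by side over the same range for nearly every gene, while the genes differ from 5437 CPM for Rpl10a to under 1 CPM for the lowest 4.

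The tag counts of the members were thus far from equal. Members whose predicted tag lies in the 3' UTR (28 genes) had a median of 11.7 CPM, and those with a tag inside the coding sequence (28 genes) a median of 188 CPM. Members with a tag found in 1 gene (36 genes) had a median of 17.9 CPM and ran from 0.4 to 1231 CPM. Members with a shared tag (24 genes) had a median of 146 CPM and ran from 0.46 to 5437 CPM. The 10 members with a tag in 5 or more genes were split evenly, 5 of them under 10 CPM and 5 at 100 CPM or more. These are descriptions over genes, which are no replicates, and the shared and unshared classes overlapped from 0.46 to 1231 CPM. Most shared tags lie in the coding sequence, and among tags in the 3' UTR only that of Rpl9 was shared. The splits by place and by sharing thus overlap largely and cannot be told apart.

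No ribosomal protein gene passed the test between knockout and control. Of the 60 members 56 passed the low-count filter, and 0 of the 56 had an edgeR adjusted p under 0.05 over all genes, where 2.17% of the 11062 genes tested did. At an unadjusted p under 0.05 there were 5 of 56, where 13.6% of all genes tested stood. Of the 5, 3 were higher in knockouts, where 7.65% of all genes tested were, and 2 lower, where 5.92% were. DESeq2 (60 members tested) and limma voom (56) also called 0 members, where 3.41% and 2.09% of all genes tested were called. Each had 6 members at an unadjusted p under 0.05, a cut at which the share of all genes was not taken for these tools. In 0 of the 56 did the 7 knockouts and 8 controls separate without overlap, where 1.19% of all genes tested did. The log2 difference was above 0 in 33 of 56 members, where 50.6% of all genes tested had one, and the median was 0.15 for members and 0.00 for all genes tested. The 33 large subunit members had a median of 0.14 and the 23 small subunit members one of 0.22. Without knockout replicate 4 the members' median was 0.04.

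The width of the intervals sets how large a difference these data leave room for. A 95% interval that lay wholly within 1 log2 unit of 0, so that a doubling or halving fell outside it, was found in 42 of the 56 members, where 82.8% of all genes tested had one. An interval wholly within 0.5 log2 units was found in 10 of 56, where 27.7% of all genes did. Among the abundant members, Rpl10a had an interval of -0.60 to 0.37, Rpl9 of -0.57 to 0.26, Rpl5 of -0.07 to 0.45 and Rpl7, a large subunit protein, of -0.27 to 0.21. The differences themselves were -0.11 for Rpl10a, -0.16 for Rpl9 and -0.12 for Rpl27. Without knockout replicate 4 they were 0.03, -0.04 and -0.04, and without control replicate 7 they were -0.18, -0.25 and -0.22. For the thinly counted Rps13 the interval ran from -0.85 to 1.71 and for Rps4y2 from -0.50 to 1.77, so a doubling lay within either interval.

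**Figure D2:**
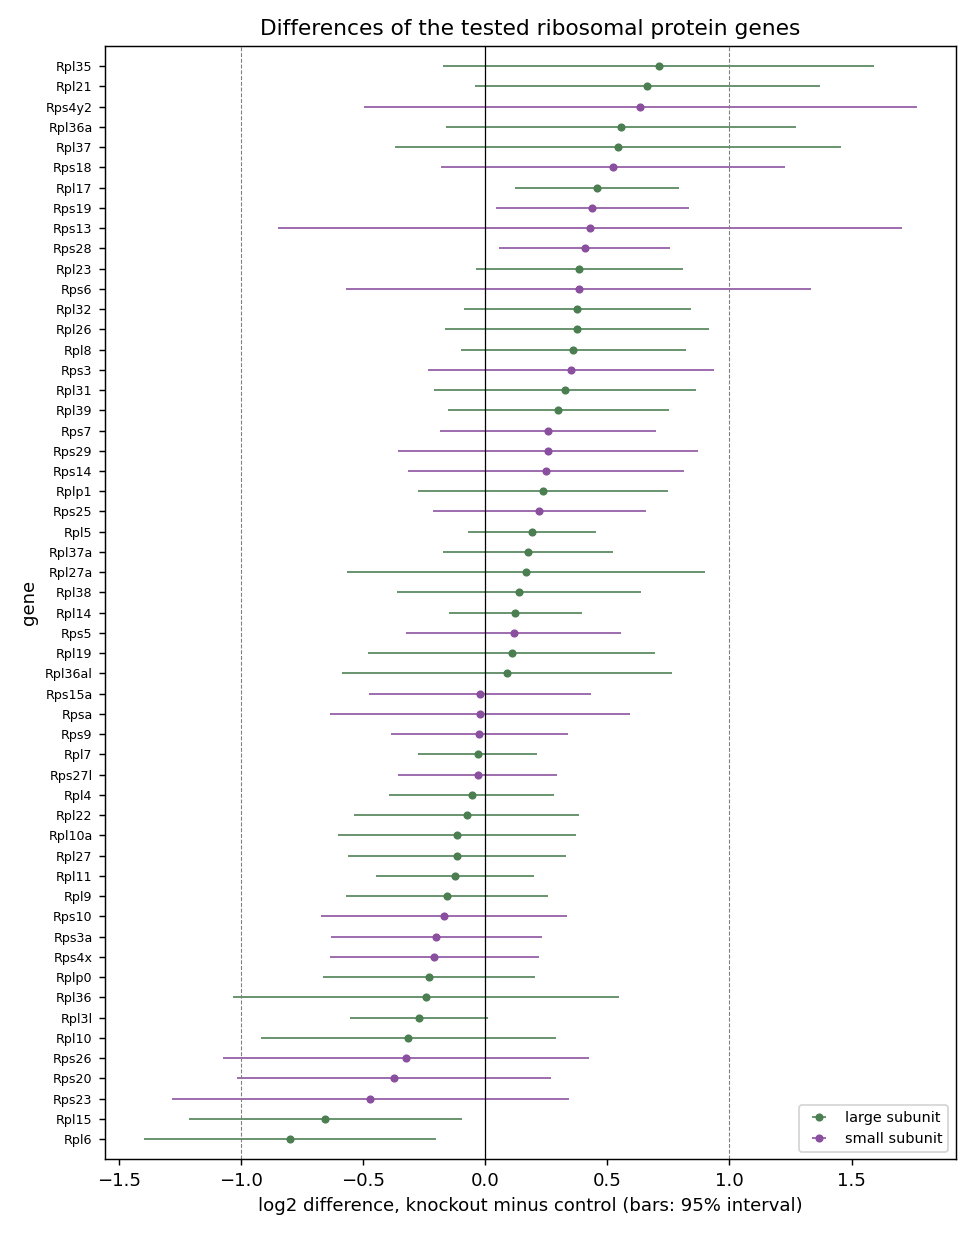
Log2 difference of knockout minus control (points) with its 95% interval (bars) for 54 of the 56 members tested, coloured by subunit; dashed lines stand at 1 log2 unit either side of 0. The points spread from -0.80 for Rpl6 to 0.71 for Rpl35, with both subunits on either side of 0, and no gene shown passed after adjustment over all genes.

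The 5 members with an unadjusted p under 0.05 went in both directions. Rpl17, at the exit of the peptide tunnel (chromosome 18, 74998558 to 75003381), stood at 2.98 to 4.93 CPM in controls (median 4.27) and 3.95 to 6.76 CPM in knockouts (median 6.47), a log2 difference of 0.46 ± 0.16 (SE, edgeR adjusted p = 0.186). Rps28, a small subunit protein near the messenger exit (chromosome 17, 33819027 to 33824562), stood at 112 to 171 CPM in controls (median 146) and 144 to 331 CPM in knockouts (median 169), with a difference of 0.41 ± 0.17 (adjusted p = 0.294). Its highest value was knockout replicate 4, and without that library the difference was 0.22, while without control replicate 7 it was 0.43. Rps19, a small subunit gene that is mutated in Diamond-Blackfan anaemia (chromosome 7, 24884371 to 24889806), stood at 4.52 to 9.71 CPM (median 7.08) and 7.09 to 13.7 CPM (median 8.46), with a difference of 0.44 ± 0.19 (adjusted p = 0.312). The highest value of Rps19 was also knockout replicate 4, and without that library its difference was 0.32, while without control replicate 7 it was 0.53. In all 3 genes the highest knockout lay above the highest control, and the ranges overlapped. The difference of Rpl17 was 0.54 without knockout replicate 4 (edgeR adjusted p = 0.0811) and 0.42 without control replicate 7 (adjusted p = 0.137).

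Rpl6, a large subunit protein (chromosome 5, 121204481 to 121209241), lay on the other side, with 1.75 to 5.03 CPM in controls (median 2.98) and 0.737 to 2.89 CPM in knockouts (median 1.82). Its log2 difference of -0.80 ± 0.28 was the most negative of the members (edgeR adjusted p = 0.199) and rests on a mean of 29.2 counts per library. Without control replicate 7 the difference of Rpl6 was -0.89 (adjusted p = 0.0756), and without knockout replicate 4 it was -0.68 (adjusted p = 0.330). Rpl15, a core protein of the large subunit (chromosome 14, 18267823 to 18271391), stood at 74.0 to 268 CPM in controls (median 205) and 75.9 to 163 CPM in knockouts (median 123), a difference of -0.65 ± 0.27 (adjusted p = 0.286). Of the 8 controls 6 lay above the highest knockout, control 3 lay among the lower knockouts, and control 7 was the lowest of all 15 libraries. Without control replicate 7 the difference of Rpl15 was -0.77 (edgeR adjusted p = 0.0628), and without knockout replicate 4 it was -0.57 (adjusted p = 0.432). None of these 5 differences passed after adjustment over all genes.

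The other members with large differences had wider errors. Of the 8 largest positive differences, those of Rpl35 (0.71 ± 0.42), Rpl21 (0.66 ± 0.34), Rps4y2 (0.64 ± 0.54), Rpl36a (0.56 ± 0.34), Rpl37 (0.54 ± 0.43) and Rps18 (0.52 ± 0.34) were larger than that of Rpl17, but their edgeR adjusted p-values were 0.399 to 0.615. Rpl35, a large subunit protein beside the tunnel exit, had 0.445 to 1.71 CPM in 6 knockouts and 5.34 CPM in knockout replicate 4, against 0.408 to 2.07 CPM in controls. Rpl21 had 0.248 to 2.19 CPM in controls and 0.725 to 2.13 CPM in knockouts, on a mean of 16.7 counts.

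On the negative side, Rps23, a protein of the decoding centre, had a difference of -0.47 ± 0.39 (edgeR adjusted p = 0.603), with 10.8 CPM in control replicate 6 and 1.64 to 4.20 CPM in the other controls against 1.10 to 4.00 CPM in knockouts. Without control replicate 6 that difference was 0.02. Rps20, of the small subunit head, had 9.12 to 31.4 CPM in controls and 6.43 to 30.1 CPM in knockouts, a difference of -0.37 ± 0.31. Rps26, at the messenger exit, had one of -0.32 ± 0.36, Rpl10, which joins the large subunit last in the cytoplasm, one of -0.32 ± 0.29, and Rpl36 one of -0.24 ± 0.38. The adjusted p-values of these 4 were 0.600 to 0.780, and the groups overlapped in each. Without knockout replicate 4 the differences of Rps20, Rps26, Rpl10 and Rpl36 were -0.24, -0.58, -0.12 and -0.03, and that of Rps26 was -0.005 without control replicate 7.

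The abundant members without a low p-value lay on both sides of 0. Of all 27 members of at least 100 CPM, 17 had a difference above 0 (median 0.18). Among all genes tested at that level 531 of 1161 did (median -0.04), and the contrast was not tested. Among large subunit genes Rpl8 (0.36 ± 0.22), Rpl32 (0.38 ± 0.22), Rpl26 (0.38 ± 0.26) and Rpl39 (0.30 ± 0.22) had positive differences. Rpl32 stood at 337 to 1146 CPM in controls (median 781) and 674 to 1200 CPM in knockouts (median 1008), so that the lowest library was a control and the highest a knockout. Among small subunit genes Rps25 (0.22 ± 0.21) lay above 0 and Rps3a (-0.20 ± 0.21) and Rps10 (-0.17 ± 0.24) below it. The edgeR adjusted p-values of these 7 genes were 0.468 to 0.757. Without control replicate 7 Rpl39 had 0.17, Rps25 0.34, Rps3a -0.31 and Rps10 -0.28, and without knockout replicate 4 Rpl26 had 0.20 and Rps10 -0.10. Rpl7, whose protein lies near the 5S rRNA, had 322 to 434 CPM in controls and 336 to 489 CPM in knockouts, and a difference of -0.03 ± 0.12 (-0.06 without control replicate 7 and -0.10 without knockout replicate 4). Rpl22, of the large subunit but not abundant (mean 8.35 CPM), had a difference of -0.08 ± 0.22, which was 0.06 without knockout replicate 4.

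The paralogues were measured beside their relatives where both were present. Rpl3l, the form of Rpl3 made in heart and skeletal muscle (chromosome 17, 24727820 to 24736143), stood at 206 to 360 CPM in controls (median 258) and 201 to 256 CPM in knockouts (median 214). The 7 knockouts lay within or just below the lower part of the control range, and the log2 difference was -0.27 ± 0.13 with an interval of -0.55 to 0.01 (edgeR adjusted p = 0.390). Rpl3 itself was not analysed here, so the balance of the pair is not given. Rps27l, a p53-responsive paralogue of Rps27 (chromosome 9, 66946086 to 66949516), stood at 572 to 1033 CPM in controls (median 811) and 587 to 998 CPM in knockouts (median 777), nearly the same span, with a difference of -0.03 ± 0.16 (adjusted p = 0.936).

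Rpl36a, on the X chromosome (134585654 to 134588062), stood at 8.94 to 26.4 CPM in controls (median 14.0) and 8.46 to 58.9 CPM in knockouts (median 15.6), a difference of 0.56 ± 0.34 (adjusted p = 0.490) that was 0.03 without knockout replicate 4 and 0.75 without control replicate 7. Its paralogue Rpl36al stood at 3.11 to 15.8 and 4.51 to 12.0 CPM, with a difference of 0.09 ± 0.32 (adjusted p = 0.909), or 0.36 without control replicate 7 and 0.17 without knockout replicate 4. Rps4x, the X-linked small subunit gene, stood at 5.53 to 12.6 and 4.43 to 9.59 CPM, a difference of -0.21 ± 0.20 (adjusted p = 0.659), or -0.12 without knockout replicate 4. Rps4y2, which the annotation lists as a transcribed processed pseudogene under the name Rps4l, had means of 1.62 ± 1.28 CPM in controls and 2.52 ± 2.08 CPM in knockouts (SD, n = 8 and n = 7) and 0 counts in control replicate 5, with a difference of 0.12 without knockout replicate 4. Among these pairs no difference passed the edgeR test. Rpl7l1, a paralogue outside the rule that acts in ribosome assembly, had a difference of -0.23 ± 0.15 (adjusted p = 0.514).

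The large subunit carries a stalk that recruits elongation factors and a particle of 5S rRNA with Rpl5 and Rpl11, which binds Mdm2 when ribosome assembly is disturbed. Rplp0, the base of the stalk, stood at 53.1 to 87.1 CPM in controls (median 61.1) and 20.01 to 66.6 CPM in knockouts (median 62.4), where knockout replicate 4 was the low library and the next was 52.2 CPM. Rplp1, which binds to it, ran from 170 to 353 CPM among controls and from 143 to 616 CPM among knockouts, and here the same library was the highest. The log2 differences were -0.23 ± 0.21 and 0.24 ± 0.24 (edgeR adjusted p = 0.633 and 0.674), and without knockout replicate 4 they were -0.08 and -0.04. Rpl5 stood at 970 to 1527 CPM in controls (median 1094) and 1014 to 1510 CPM in knockouts (median 1370), a difference of 0.19 ± 0.12 (adjusted p = 0.516). Rpl11 stood at 73.7 to 125 and 51.6 to 97.7 CPM, with a difference of -0.13 ± 0.15 (adjusted p = 0.723), or -0.03 without knockout replicate 4 and -0.06 without control replicate 7. The pair of the particle thus lay on opposite sides of 0, each within the spread of the libraries.

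Rps6, the small subunit protein that S6 kinases phosphorylate, had few counts, with 0.994 to 10.6 CPM in controls (median 2.22) and 1.78 to 10.9 CPM in knockouts (median 4.01). The highest of each group were control replicate 7 and knockout replicate 4, and the difference was 0.38 ± 0.45 (edgeR adjusted p = 0.711), or 0.02 without knockout replicate 4 and 0.86 without control replicate 7. Rpsa, a small subunit protein also known as the laminin receptor, had a difference of -0.02 ± 0.29 (adjusted p = 0.978). The 4 members that failed the count filter had means of 0.494 CPM (Rpl13a), 0.456 CPM (Rpl24), 0.423 CPM (Rps24) and 0.399 CPM (Rps19bp1), with at most 20 counts in any library.

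**Figure D3:**
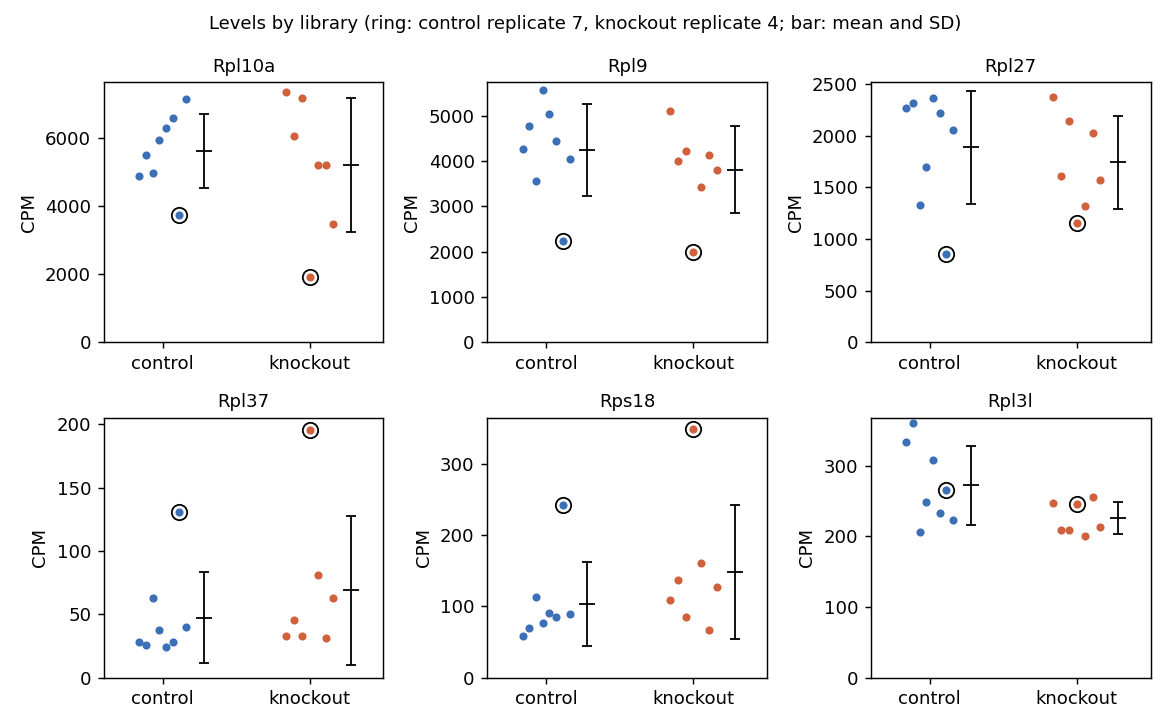
CPM of 6 members in each control and knockout library, with the mean and SD beside the points; rings mark control replicate 7 and knockout replicate 4. The ringed libraries are the lowest of their groups for Rpl10a, Rpl9 and Rpl27, the highest for Rpl37 and Rps18, and within the range of the others for Rpl3l.

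As a share of all counts the members took 1.96% to 2.41% in controls and 1.96% to 2.59% in knockouts, with means of 2.17% ± 0.146 (SD, n = 8) and 2.27% ± 0.207 (SD, n = 7). The ranges overlapped nearly throughout. Rpl10a and Rpl9 alone made up 32.1% to 49.2% of the members' counts in controls and 20.1% to 47.2% in knockouts. The other 58 members took 1.21% ± 0.142 of all counts in controls and 1.36% ± 0.191 in knockouts. The means of the whole set differed by 0.103 percentage points, less than the SD within either group, and by 0.0499 without knockout replicate 1 and 0.155 without knockout replicate 6. When the 10 most abundant genes outside the set were left out of the denominator the difference was 0.007 percentage points.

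**Figure D4:**
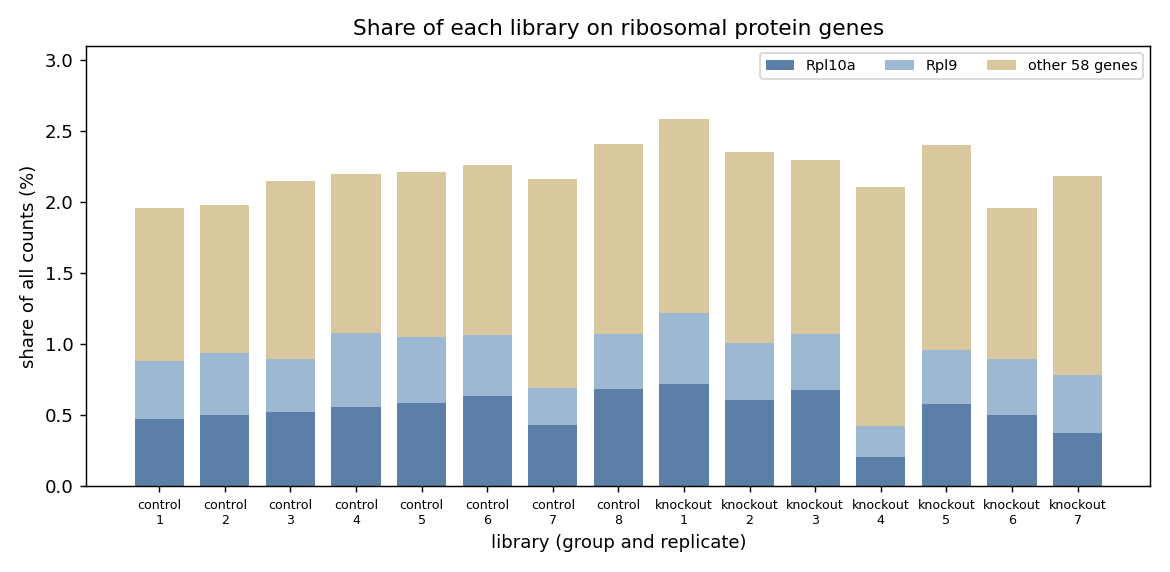
Share of all counts of each library (percent) that fell on Rpl10a, Rpl9 and the other 58 genes, stacked. The totals stay between 1.96% and 2.59% in all 15 libraries, while the part of Rpl10a and Rpl9 is smallest in knockout replicate 4 and control replicate 7.

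Single libraries departed from their groups in many members at once. Control replicate 7 and knockout replicate 4, the deepest libraries of their groups and the highest of all on the leading principal component (44.6% of the variance), were the furthest from their own groups. In control replicate 7, 34 of the 56 members (60.7%) lay more than 1.5-fold from the median of the other controls, 21 above and 13 below, and in knockout replicate 4, 37 (66.1%) did, 18 above and 19 below. In the other 13 libraries the share was 5.36% to 33.9%. All genes tested showed the same 2 libraries apart, with 44.4% and 46.5% of genes off by that margin.

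Of the 24 members off by more than 1.5-fold in both libraries, 23 were off in the same direction, as were 3090 of the 3195 genes off in both among all genes tested. The 9 that were lower in both included Rpl10a, Rpl9, Rpl27, Rpl15 and Rpl38, and the 14 that were higher in both included Rpl37, Rps18, Rps6, Rplp1 and Rps29. Rpl37, a zinc-binding large subunit protein (chromosome 15, 5116645 to 5119140), had 131 CPM in control replicate 7 and 24.5 to 62.7 CPM in the other controls, and 196 CPM in knockout replicate 4 and 31.6 to 81.1 CPM in the other knockouts. Rps18, of the small subunit head (chromosome 17, 33951999 to 33956001), had 243 CPM in the first and 350 CPM in the second, against 57.9 to 114 and 67.6 to 162 CPM in the others of each group. Across the 56 members Pearson's r of the deviations in the 2 libraries was 0.62, and across all 11062 genes it was 0.67, a description over genes that share each library's depth and scaling. The set that was lower in both had a median predicted tag GC of 48.1% and the set that was higher in both 46.2%, with ranges that overlapped, and 5 of 9 and 5 of 14 had a shared tag. Of the 11 marker lists, Schwann cell markers summed to 125 and 123 CPM in these 2 libraries, the highest of each group, where the group medians were 58.3 and 61.6 CPM. Smooth muscle and pericyte markers summed to 287 and 295 CPM, the lowest of each group, but the genes of that list did not move together. In knockout replicate 4, Myh11, Rgs5 and Pdgfrb were at their lowest among knockouts (195, 40.4 and 1.19 CPM). Acta2 and Tagln were at their highest among knockouts there (22.3 and 36.5 CPM). The part of these cells and of depth in the members' values was not tested. The differences of Rpl35, Rpl37 and Rps18 were 0.71, 0.54 and 0.52 with all libraries, 0.10, 0.01 and 0.15 without knockout replicate 4, and 0.92, 0.97 and 0.83 without control replicate 7.

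**Figure D5:**
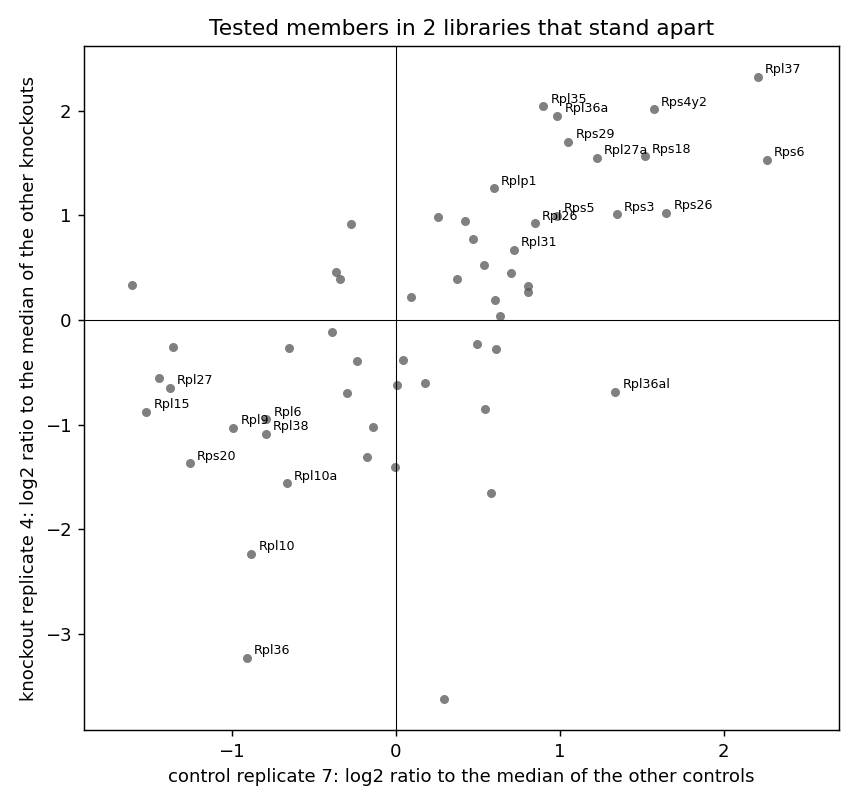
Log2 ratio of each of the 56 tested members to the median of the other libraries of its group, in control replicate 7 (x axis) and in knockout replicate 4 (y axis); genes off by more than 1.5-fold in both are named. Of 24 such genes 23 lie in the lower left or upper right, and Rpl36al is the exception.

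The lists of other translation genes in this paragraph held no called gene, where 2.17% of all genes tested were called. For lists of 18 to 54 genes a count of 0 lies near that share. Of the ribosomal proteins with other symbols, Fau, made as a fusion of a ubiquitin-like protein with a small subunit protein, had a log2 difference of 0.26 ± 0.20 (edgeR adjusted p = 0.591), and the scaffold Gnb2l1 (Rack1) one of -0.12 ± 0.20 (adjusted p = 0.794; -0.29 without knockout replicate 4), so neither was called. Of 18 elongation factors and other TOP-class genes 0 were called (lowest adjusted p = 0.229, for the nascent chain binding Naca, log2 0.60 ± 0.22), with a median of 0.13. Of 28 initiation factor genes 0 were called, with a median of 0.05 and the lowest p for Eif2b5, an exchange factor subunit (log2 0.24 ± 0.11, adjusted p = 0.359). Of 54 ribosome biogenesis genes 0 were called, with a median of 0.02 and the lowest p for Riok2, a kinase of small subunit maturation (log2 0.67 ± 0.30, adjusted p = 0.340).

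In the list of mTORC1, S6 kinases and TOP regulators 2 of 22 tested genes rose and 1 fell, where 1.67% and 0.497% of all genes tested did, and the list's median was -0.02. Mtor, the kinase itself, rose: controls had 2.86 to 4.89 CPM (median 3.59) and knockouts 3.76 to 9.08 CPM (median 7.90), a log2 difference of 0.98 ± 0.18 (edgeR adjusted p = 0.00511). Ddit4, an inhibitor of mTORC1, rose from a median of 1.68 to 4.45 CPM (log2 1.40 ± 0.32, adjusted p = 0.0256). That call was lost in 5 of the fits without 1 library, those leaving out control 1, 5 or 6, or knockout 4 or 7 (adjusted p of 0.05265 to 0.0584, and 0.0024 to 0.0584 over all 22 alternatives). Mtor remained called in each of the 22, with an adjusted p of at most 0.042. Ddit4l, a relative of Ddit4 that also inhibits mTORC1, fell from 999 ± 239 to 397 ± 102 CPM (adjusted p = 0.000276), with no overlap of the groups. Of the 3 genes called, 2 are named inhibitors of mTORC1, and they went in opposite directions.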

How the data were processed

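Gastrocnemius RNA of 8 control and 7 knockout mice was measured by SOLiD SAGE, per the labels' protocols. The authors deposited raw tag counts per gene symbol and a table of normalized signal values, which equal the counts divided by 1 factor per library (largest relative deviation 5.4e-10) and were not used for tests. Per the submitters' processing notes DESeq2 was used with mm10 and GRCm38.p1. The aligner and the tag counting are not given in the sources used here, and 360 empty lines were dropped. Counts were tested in edgeR 4.0.16 (R 4.3.3, quasi-likelihood, robust, TMM, filterByExpr with minimum count 10, 11062 of 13602 genes kept, Benjamini-Hochberg at 0.05), and the script was tested on simulated data. Levels are CPM, log2 CPM used a prior count of 2, and ratios to a group median an offset of 0.1 CPM. Standard errors are the log2 difference divided by the root of the F statistic. Alternatives were RLE, library size alone, no filter, DESeq2 1.42.0, limma 3.58.1 voom, single libraries left out and a replicate block.

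Members and lists were chosen with earlier results of these data known. Named are members with a low adjusted p (none), the 8 largest differences each way, the 5 highest and 5 lowest levels, paralogue pairs, Rpsa, the stalk genes, Rps6, and up to 4 called genes of each list or the one with the smallest p. Rpl11, Rpl36al, Rps28, the abundant members described together, the markers and the members named in the libraries that stand apart were named after their values were seen. Each library was taken as 1 mouse. P-values set the difference between the groups against the spread between these libraries. Results of a few genes are not reported here, and 2 members are left out of the plots of levels and differences.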

Additional observations from a re-analysis of the deposited data

Results flagged for a closer look

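In 13 cases a library lay far from the rest of its group, by a gap that is large beside the group's whole range, among 62 groups of named members examined. Chance gives about 1 in 20 in independent groups, but these genes share their libraries and some were named for large differences that 1 library carries, so the number is no comparison with chance. Of the 13, 7 were in knockout replicate 4 and 3 in control replicate 7. In knockout replicate 4, Rpl35 stood at 5.34 CPM (next 1.71), Rpl36a at 58.9 (19.9), Rpl37 at 196 (81.1), Rplp1 at 615.7 (306.9), Rps18 at 349.6 (161.6) and Rps4y2 at 6.81 (3.38), all above the rest, and Rplp0 at 20.01 (52.2), below it. In control replicate 7, Rpl36a stood at 26.4 CPM (15.9), Rpl37 at 130.7 (62.7) and Rps18 at 242.9 (113.8). Elsewhere Rpl21 stood at 2.19 CPM in control replicate 3 (1.16), Rps23 at 10.8 in control replicate 6 (4.20) and Rpsa at 4.92 in knockout replicate 7 (3.26).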

How the results depend on the processing

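The count of 0 ribosomal protein genes called was the same in all 22 alternatives, and the smallest adjusted p of any member ran from 0.0628 to 0.363. The 0.0628 was that of Rpl15 in the edgeR fit without control replicate 7. In that fit 15 of 56 members had an unadjusted p under 0.05, and the share of all genes at that cut was not taken. By adjusted p 4.25% of all genes tested were called there, against 2.17% in the main fit. The members' median ran from 0.041 (without knockout replicate 4) to 0.212. All genes called went from 240 to 455 with DESeq2, to 161 to 465 without 1 library (465 without control replicate 7), and to 403 without control replicate 7 and knockout replicate 4 together, a choice made after seeing the data. With the replicate number as a block it was 117. Same-numbered libraries deviated together in only 3 of 7 pairs (r from -0.45 to 0.31) and 1 of 7 knockouts correlated best with its own number, so the numbers were not taken as pairs. Some differences changed sign: with library size alone Rpl7 was 0.0325, Rps27l 0.0246 and Rpsa 0.0344, with voom Rps13 was -0.229 and Rpsa 0.109, with the replicate block Rps27l was 0.0138 and Rpsa 0.0667, and without both libraries above Rpl22 was 0.0238. Without 1 library the values ran from -0.218 to 0.031 (Rpl10a), -0.207 to 0.065 (Rpl22), -0.039 to 0.358 (Rplp1), -0.598 to 0.021 (Rps23), -0.093 to 0.032 (Rps27l) and -0.173 to 0.208 (Rpsa). The cause was not tested. Members under 10 CPM rest on few tags, which limits them.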
